A study of Mus musculus with 2 samples.

Results

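B lineage cells were picked out of single-cell RNA sequencing of the mouse temporomandibular joint by the messenger RNA of their receptor and of the factors that fix their identity. A barcode, the tag shared by all reads of a droplet, was kept when it held 500 or more genes and less than 10% mitochondrial reads counted once per molecule (unique molecular identifiers, UMIs). A kept barcode was called a B lineage cell when Cd79a and Cd79b, the signalling chains of the B cell receptor, together had 3 or more UMIs, Pax5 and Ebf1, the transcription factors of B cell identity, together had at least 1, and neither the T cell genes Cd3e and Cd3g nor the macrophage gene Csf1r had any. Members were thus selected on measured UMIs of these 7 genes. The rule gave 191 of 10109 kept barcodes, 113 of 4352 in the WT library and 78 of 5757 in the Prox1 mutant library.

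The study sequenced 1 library of joint tissue from C57BL/6 mice labelled WT and 1 from mice labelled Prox1 mutant, both aged 8 to 10 weeks and both given Complete Freund's Adjuvant (CFA), an oil emulsion of killed mycobacteria that inflames the joint. Per the study's methods the mice were female, the adjuvant was injected into the joint, and the mutants were Prox1+/−, which lack 1 copy of Prox1 in every cell and not only in lymphatic endothelium, where the factor is best known. No library without CFA was part of these samples, and the number of mice behind each library and the time after injection are not given in the sources used here. With 1 library per genotype there was no replicate, so no test between genotypes was possible: every interval given is a 95% interval that covers counting error only (Clopper-Pearson for shares, Poisson for levels, Newcombe for differences of shares), and genotype, mouse and library cannot be told apart.

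B cells arise in bone marrow in an order that is read from a few genes. Pro-B and pre-B cells assemble the antibody heavy chain with the recombinase Rag1 and Rag2, pair it with a surrogate light chain made of Igll1 (lambda 5) and Vpreb1 or Vpreb2, and divide under interleukin 7. The light chain loci then rearrange, immature cells carry IgM, and mature naive cells add IgD, CD23 (Fcer2a) and CD21 (Cr2), raise MHC class II for presenting antigen to T cells, and recirculate through lymph. Plasma cells, the end stage, secrete antibody and shut off Pax5.

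The label was checked against its 5 marker genes, of which the rule had used Cd79a, Cd79b and Pax5. In the WT cells Cd79a stood at 882 CPM (UMIs of the gene per 1000000 UMIs of these cells together), Cd79b at 508, and Pax5 at 690. In the mutant cells the same genes stood at 683, 292 and 905 CPM. Ighm, the IgM heavy chain, and Vpreb3, a light chain chaperone, were outside the rule: Ighm was seen in 110 of 113 WT and 72 of 78 mutant cells, and Vpreb3 in 106 and 53. Ighm reached 1622 CPM in WT and 1184 CPM in mutant B lineage cells, against 28.0 and 41.6 CPM in T cells (Cd3e and Cd3g together 2 or more, no Cd79a or Cd79b) and 11.3 and 5.94 CPM in endothelial cells (Pecam1 and Cdh5 together 3 or more, no Ptprc). Vpreb3 had no UMI in the 41 WT and 58 mutant T cells, and 2 WT and 4 mutant members had neither Ighm nor Vpreb3. Set against all other kept barcodes, as a description of cells chosen by these genes, 568 genes (9.39%) were 2-fold or more higher in the members of both libraries. Outside the rule they were led by Igkc, Vpreb3, Jchain, Igll1, Vpreb1 and Mzb1, of which Jchain was seen in 3 WT and 6 mutant members and Igkc had 18162 of its 19165 WT UMIs in 1 cell, and also included Tmem108 (650 and 301 CPM) and Pou2af1, the B cell coactivator (339 and 223 CPM, against 1.37 and 3.16 CPM in the other cells). The label therefore held for nearly all members.

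At the edge of the rule, 5 WT and 5 mutant members had exactly 3 Cd79a and Cd79b UMIs, and Ighm was seen in 4 and 3 of them. Just outside, 6 WT and 20 mutant barcodes met every other condition with 2 such UMIs, and Ighm was seen in 3 and 13. The median member had 12 Cd79a and Cd79b UMIs in WT and 10 in the mutant.

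Depth and haemoglobin RNA differed between the libraries before any B cell gene was compared. The median WT member had 5025 UMIs (2136 to 112787) and the median mutant member 6688 (1375 to 50714), whereas all kept barcodes had medians of 6997 and 4848. Of the barcode sequences, 10 were present in both libraries, and none of these was a member. Prox1, the targeted gene, had 1 UMI in the B lineage cells of each library. Its level in endothelial cells was 38.9 CPM in WT (34.7 to 43.5) and 21.5 CPM in mutant mice (17.4 to 26.3), from 40 of 1079 (3.71%) and 17 of 556 (3.06%) endothelial cells. Haemoglobin RNA was also present in the T and endothelial cells: Hbb-bs was seen in 80.5% of WT and 100% of mutant T cells and in 71.6% of WT and 96.8% of mutant endothelial cells.

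Within the members, 8 erythroid genes summed to 300 UMIs in WT and 45897 in the mutant, led by Hbb-bs and with no gene at 0. In the mutant 9 cells with 100 or more such UMIs held most of them, and the other cells together held 723. Neutrophil genes (8 on the list, led by S100a8 in WT and S100a9 in the mutant) summed to 7782 and 13894 UMIs, of which a single cell held 5461 in WT and 12609 in the mutant. Mesenchymal genes (7, led by Col3a1) summed to 2303 and 203 UMIs, and 1 WT cell held 1450. Macrophage genes (6, without those shared with B cells) summed to 23 and 98 UMIs, 49 of them in 1 mutant cell. Of 11 T cell genes, summed at 31 and 14 UMIs, 6 were at 0 in each library. Results with these cells left out are given below for the mature and recombinase classes, the Hbb-bs ratio and the genes past the fold. Their part was otherwise not tested.

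Of the kept barcodes, B lineage cells were 2.60% (WT, 2.14 to 3.11) and 1.35% (mutant, 1.07 to 1.69), which differ by −1.24 percentage points (−1.82 to −0.696). T cells by the rule above made up 0.942% and 1.01%, and endothelial cells 24.8% and 9.66%, so shares of other types in the denominator moved as well.

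The members were split in order into 4 exclusive classes that follow development. The surrogate light chain class had 2 or more Igll1 and Vpreb1 UMIs. Of the rest, the recombinase class had at least 1 Rag1 or Rag2 UMI, the mature class at least 1 UMI of Ighd, Fcer2a or Cr2, and the remaining class none of these. Genes that set a class are described in it and are not a finding about it.

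The mature class took 10 of 113 cells from WT (8.85%, 4.33 to 15.7) but 32 of 78 from the mutant (41.0%, 30.0 to 52.7), which is 32.2 points more (19.9 to 44.0). Of the 10 WT cells, 7 had a single Ighd UMI, against 1 of the 32 mutant cells, so the WT class is weakly placed. The recombinase class went the other way, with 33 cells from WT (29.2%, 21.0 to 38.5) but 10 from the mutant (12.8%, 6.32 to 22.3), a gap of −16.4 points (−27.0 to −4.46). Surrogate light chain cells numbered 47 (41.6%, 32.4 to 51.2) for WT against 23 (29.5%, 19.7 to 40.9) for the mutant, and the interval of that difference, −12.1 points (−25.0 to 1.81), included 0 here but not under 3 of the alternatives given in the closing section. The remaining class held 23 and 13 cells (20.4% and 16.7%). In WT the surrogate light chain and recombinase classes were thus the most frequent, and in the mutant the mature class was. With the members that carried RNA of another lineage left out, the mature class was 10 of 103 in WT and 26 of 63 in the mutant, and the recombinase difference was −11.9 points (−23.3 to 1.15), which included 0.

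**Figure D1:**
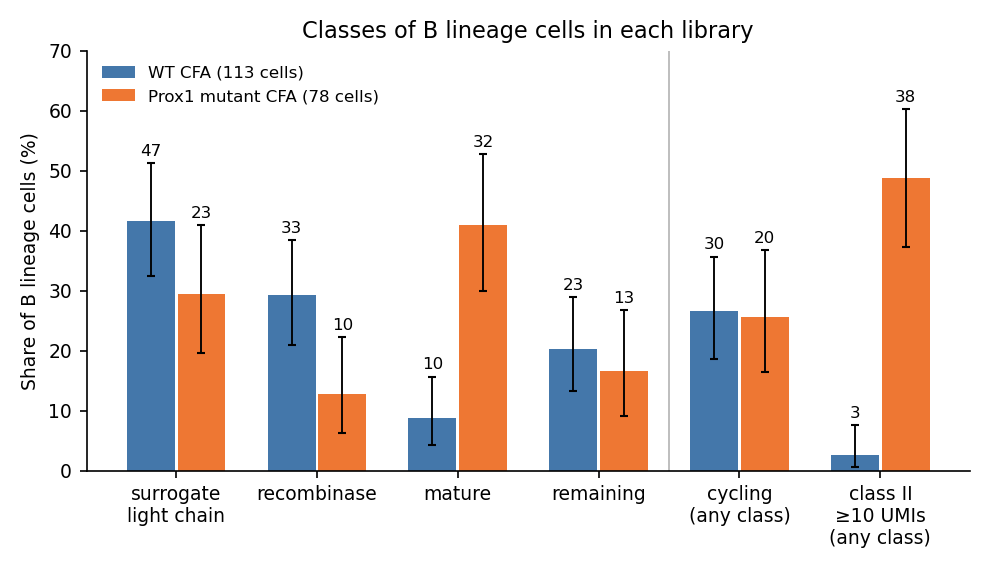
Share of the B lineage cells of each library (percent, vertical axis) in the 4 stage classes, and the shares that were cycling or had 10 or more class II UMIs in any class, with the cell number over each bar and a 95% Clopper-Pearson interval for counting error only. The mature class is 8.85% in WT and 41.0% in the mutant, and its intervals do not overlap.

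Of the surrogate light chain genes, Igll1, Vpreb1 and Vpreb2 lie on chromosome 16 of GRCm38 and Vpreb3 on chromosome 10. Igll1 (chr16:16860671-16863985, minus strand) encodes the constant-like part of the surrogate chain, and Vpreb1 (chr16:16868403-16870843, minus strand) and Vpreb2 (chr16:17980428-17981273, plus strand) encode its near-identical variable-like parts. A stretch before the RefSeq start of Vpreb1 and of Vpreb2 is shown because the pair are near copies, with 104 of 106 bases the same, and because reads of such copies can be split or lost when they are counted, which makes the values of Vpreb1 and Vpreb2 uncertain. RefSeq starts Vpreb1 further in than the gene span printed above, which is from GENCODE, so that the stretch of Vpreb1 lies inside that span. Capitals mark CAGGTG, an E box of the kind bound by the B cell factor E2A (Tcf3). Sequences are from RefSeq on GRCm38.p6, 5′ to 3′ on the gene's own strand, at chr16:16869256-16869361 (minus) for Vpreb1 and chr16:17980315-17980420 (plus) for Vpreb2, and the third is the 250 bases before Igll1 at chr16:16863986-16864235 (minus), with the E box on the other strand as CACCTG.
Vpreb1: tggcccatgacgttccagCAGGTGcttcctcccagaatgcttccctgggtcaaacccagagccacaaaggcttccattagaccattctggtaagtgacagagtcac
Vpreb2: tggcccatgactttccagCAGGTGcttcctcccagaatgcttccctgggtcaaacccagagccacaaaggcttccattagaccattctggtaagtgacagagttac
Igll1: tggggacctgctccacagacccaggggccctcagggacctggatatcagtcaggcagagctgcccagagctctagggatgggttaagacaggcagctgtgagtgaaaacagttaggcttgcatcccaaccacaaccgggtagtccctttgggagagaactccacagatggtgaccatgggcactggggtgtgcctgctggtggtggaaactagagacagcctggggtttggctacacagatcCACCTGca
CAGGTG on either strand was found in the 250 bases before the gene start for 3 of the 4 surrogate light chain genes (not Vpreb3), for 6 of 13 mature B cell genes with an entry, and for 17.2% of 32851 windows of that length. Of the genes with an entry, 1 of 10 recombination genes and 1 of 4 class II genes had it. A match describes the letters and not a bound site.

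Igll1 and Vpreb1 together had a median of 11 UMIs per cell (2 to 60) in the WT surrogate light chain class and 43 (8 to 63) in the mutant class, at median depths of 6561 and 10894 UMIs. The lowest mutant cell thus had 8, whereas 13 WT members had between 1 and 3 and sat at the edge of the class, against 2 in the mutant. As a level over the class, Igll1 read 835 CPM for WT and 1312 CPM for mutant cells, Vpreb1 read 881 and 1247 CPM, and Vpreb2 read 82.0 and 225 CPM. Vpreb2 was seen in 11 of 47 WT and 17 of 23 mutant cells.

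Dntt, the terminal transferase that adds bases at heavy chain joints in pro-B cells, divided the class further. WT cells with Dntt numbered 18 of 47 (38.3%, 24.5 to 53.6) and mutant cells with it 16 of 23 (69.6%, 47.1 to 86.8), at 274 and 507 CPM. Cd93, a surface receptor of early B cells, was seen in 16 of 47 and 20 of 23. The shares rise with depth, which was higher in the mutant class. Summed over members of all classes, the higher mutant level of Dntt did not hold in cells thinned to 2000 UMIs, where its log2 ratio, mutant over WT, was −2.45. It also did not hold with cells holding Cd3e, Cd3g or Csf1r kept (−0.48). The rule was applied again after thinning, which left 79 WT and 42 mutant members, with 21 and 6 in the surrogate light chain class. Thinned values are thus not of the same cells.

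Lef1 and Erg, transcription factors of early B cells, were highest in this class. Lef1 reached 1531 CPM for WT and 2632 CPM for mutant cells, against 133 and 58.7 CPM in the recombinase class. Erg stood at 389 and 1034 CPM, seen in 28 of 47 and 20 of 23 cells.

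A cell was called cycling with 3 or more UMIs over Mki67, Top2a, Birc5, Cdk1, Ccnb1 and Ccnb2, genes of the S to M phases. In all, 30 of 113 WT (26.5%) and 20 of 78 mutant members (25.6%) met this. Cycling cells were concentrated in the surrogate light chain class, where 21 of 47 WT (44.7%, 30.2 to 59.9) and 13 of 23 mutant cells (56.5%, 34.5 to 76.8) met it. In the recombinase class 4 of 33 and 1 of 10 did, and in the mature class 3 of 10 and 2 of 32. The remaining class had 2 of 23 and 4 of 13 (30.8%, 9.09 to 61.4). Among WT surrogate light chain cells, 3 of 18 with Dntt and 18 of 29 without it were cycling, and in the mutant 8 of 16 and 5 of 7.

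The recombinase class held the cells with Rag1 (chr2:101638282-101649501) or Rag2 (chr2:101624718-101632529) but little surrogate light chain. Rag1 had 380 CPM in its WT cells and 176 CPM in its mutant cells, and was seen in 57 of all 113 WT and 22 of all 78 mutant members. Il7r, the interleukin 7 receptor chain that sustains early B cells, was still at 642 and 362 CPM here, and at 749 CPM in the 10 mature WT cells, but at 23.7 CPM in the mature mutant cells, where 1 of 32 had a UMI. Vpreb3 was likewise lowest in the mature mutant cells, at 1915, 1622 and 1569 CPM in the surrogate light chain, recombinase and mature classes of WT and at 1476, 753 and 88.1 CPM in the mutant.

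Igkc, the kappa constant region, was seen in 32 of 47 WT and 10 of 23 mutant cells of the surrogate light chain class. T cells, which should lack it, had it in 6 of 41 (14.6%) and 25 of 58 (43.1%), at 26214 and 8174 median UMIs. Endothelial cells had it in 13.3% and 16.5%. The share of mutant surrogate light chain cells with Igkc thus lay close to that of mutant T cells. The level of Igkc was higher in the mutant surrogate light chain cells, at 126 against 47.6 CPM. Igkc had a median of 1 UMI per cell in WT surrogate light chain cells and 6 (0 to 44) in WT recombinase cells, and 10.5 (0 to 47) in WT mature cells. In the mutant the medians were 0, 1.5 and 22.5. The 3 lambda constant genes Iglc1, Iglc2 and Iglc3, close copies whose reads cannot be fully assigned among them, were counted together. Of members with 10 or more light chain UMIs, lambda exceeded kappa in 15 of 53 from WT (28.3%, 16.8 to 42.3) but 2 of 43 from the mutant (4.65%, 0.568 to 15.8). By class the lambda cells were 8 of 22 in the WT recombinase class, 2 of 7 in the WT mature class, 5 of 16 in the WT remaining class, 1 of 4 in the mutant recombinase class and 1 of 31 in the mutant mature class, with none of 8 and 1 surrogate light chain cells and none of 7 remaining mutant cells. In most mature mutant cells lambda UMIs were few, with a median of 3 and a maximum of 13.

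Mature class cells of the libraries differed in how firmly the class held. Ighd (chr12:113406604-113416324), made from the same transcripts as Ighm (chr12:113418558-113422730), had a median of 1 UMI (1 to 6) in the 10 WT cells and 4 (1 to 9) in the 32 mutant cells. Of the WT cells, 3 of 10 had 2 or more UMIs of Ighd, Fcer2a and Cr2, against 31 of 32 in the mutant, at median depths of 5250 and 5355.5 UMIs. In the surrogate light chain class, too, 12 of 47 WT and 11 of 23 mutant cells had an Ighd UMI, and 3 and 6 of them had 2 or more. In the recombinase class 9 of 33 WT and 3 of 10 mutant cells had an Ighd UMI. A cell placed by few such UMIs is thus weakly placed in either library. Given also the Il7r and Vpreb3 levels above, the mature classes of the 2 libraries may hold cells of unlike stage. Fcer2a was seen in 1 of 10 and 23 of 32 cells, and Cr2 in 0 of 10 and 17 of 32.

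Genes of the mature class that had no part in the rule followed the same split. Ms4a1, the surface protein CD20, had 125 CPM in 5 of 10 WT cells and 420 CPM in 32 of 32 mutant cells. Bank1 (chr3:136053363-136326066), a scaffold of B cell receptor signalling, stood at 553 CPM (5 of 10) and 3673 CPM (32 of 32). In WT both genes were also seen in the remaining class, Ms4a1 in 9 of 23 cells at 144 CPM and Bank1 in 12 of 23 at 202 CPM, so the mature class does not hold all WT cells with late genes. Cxcr5, the follicle homing receptor, stood at 35.7 and 217 CPM, and the survival factor Bcl2 at 125 and 329 CPM. Others went the opposite way: Bach2, a repressor of plasma cell fate, stood at 8771 CPM in the mature WT cells and 2602 CPM in the mutant ones, and Cd72, an inhibitory coreceptor, at 588 and 98.3 CPM.

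MHC class II genes also separated the cells of the libraries. H2-Aa and H2-Ab1, the chains of I-A, and H2-Eb1, the beta chain of I-E, together had a median of 0 UMIs (0 to 33) per WT cell and 8 (0 to 223) per mutant cell. Counting cells with 10 or more, 3 of 113 came from WT (2.65%, 0.551 to 7.56) but 38 of 78 from the mutant (48.7%, 37.2 to 60.3), which is 46.1 points more (34.2 to 57.1). All 32 mature mutant cells were among them, with a lowest value of 14, a median of 35 and a highest of 223, whereas 3 of 10 mature WT cells were, with a median of 2.5. Outside the mature class 5 of 13 remaining and 1 of 23 surrogate light chain cells of the mutant reached 10, and no WT cell did.

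The 250 bases before H2-Aa (chr17:34282744-34287823, minus strand) and H2-Eb1 (chr17:34305867-34316674, plus strand) are shown because both genes moved together here and both windows hold a Y box, in capitals, the CCAAT-type element of class II promoters. They lie at chr17:34287824-34288073 (minus) and chr17:34305617-34305866 (plus), from RefSeq on GRCm38.p6, 5′ to 3′ on the gene's strand.
H2-Aa: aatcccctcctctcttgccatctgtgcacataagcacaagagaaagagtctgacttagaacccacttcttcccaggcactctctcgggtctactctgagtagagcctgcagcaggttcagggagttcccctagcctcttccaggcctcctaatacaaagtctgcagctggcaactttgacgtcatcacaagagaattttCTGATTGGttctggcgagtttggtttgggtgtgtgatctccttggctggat
H2-Eb1: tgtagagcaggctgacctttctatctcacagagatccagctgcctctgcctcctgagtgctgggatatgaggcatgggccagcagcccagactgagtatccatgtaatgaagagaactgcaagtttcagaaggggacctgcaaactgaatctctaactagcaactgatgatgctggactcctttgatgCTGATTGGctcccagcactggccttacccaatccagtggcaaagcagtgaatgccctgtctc
The Y box letters CTGATTGG, searched on both strands, end 43 and 54 bases before the gene starts. They were found in 2 of the 4 class II list genes with an entry and in 3.83% of 32851 windows of the same length.

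Macrophages and dendritic cells also make class II, and its RNA was found in droplets of other types. H2-Aa was seen in 26.9% of WT and 44.8% of mutant endothelial cells, at 152 and 259 CPM, against 28.3% and 71.8% of B lineage cells at 75.1 and 828 CPM. The WT B lineage level thus lay below that of WT endothelial cells, and the mutant B lineage level above that of mutant endothelial cells. T cells, at 1689 and 1372 CPM, lay above the B lineage level in both libraries. The T cell rule, unlike the B lineage rule, set no condition on Csf1r. That gene was seen in 23 of 41 WT and 22 of 58 mutant T cells, so these levels were not taken under like rules.

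**Figure D2:**
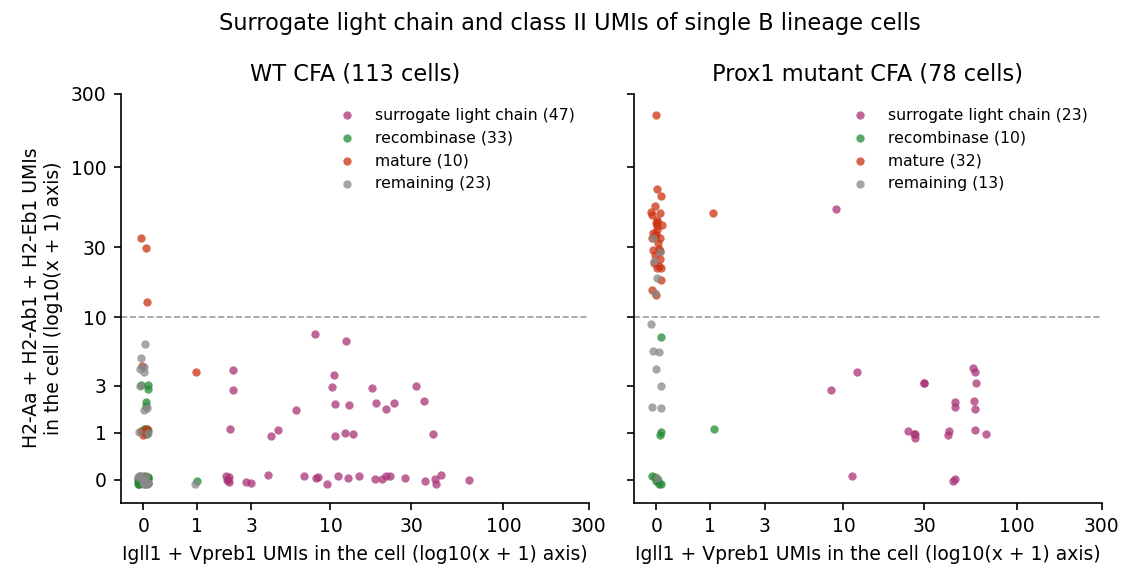
Each point is a B lineage cell, with its Igll1 and Vpreb1 UMIs on the horizontal axis and its H2-Aa, H2-Ab1 and H2-Eb1 UMIs on the vertical axis, in a panel per library and coloured by stage class. Cells of the surrogate light chain class lie low on the vertical axis in both libraries, apart from a mutant cell with 54 class II UMIs, and cells with 10 or more class II UMIs number 3 in WT and 38 in the mutant.

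Over all members, genes with 50 or more UMIs in the libraries together were compared as the log2 ratio of CPM plus 5, mutant over WT, and called at 2-fold or more. Of 6047 genes, 350 were higher in the mutant (5.79%) and 426 lower (7.04%), 776 in all (12.8%), with a median log2 ratio of −0.10. With the richest cell of each library left out for each gene, 285 stayed higher (4.71%) and 235 lower (3.89%). Fewer genes passed the fold with members carrying RNA of another lineage left out, and more of those were higher than lower (counts in the closing section). These are ratios between single libraries whose class makeup differed, and no ratio was tested. Besides Ighg2b, described with the antibody secreting cells, the haemoglobin genes Hba-a2 (8.00), Hba-a1 (7.89), Hbb-bt (7.59) and Hbb-bs (7.13) had the highest ratios, and with members carrying RNA of another lineage left out Hbb-bs stood at 1.39. Apart from Rpl29 (−5.49), seen in 108 WT and 10 mutant members, the lowest ratios were of neuronal genes such as Calca, whose UMIs lay almost wholly in 1 WT member.

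All 7 class II genes were higher in the mutant, with a median of 2.36. H2-Aa went from 75.1 to 828 CPM (log2 ratio 3.38), H2-Ab1 from 77.1 to 417 CPM (2.36), H2-Eb1 from 39.1 to 615 CPM (3.82), and Cd74, the invariant chain, from 389 to 2025 CPM (2.37). H2-DMa and H2-DMb1, which load peptide, had ratios of 1.08 and 2.04, and Ciita, the master regulator of class II transcription, 2.30. Given equal weight for each class, so that the shares of the classes did not enter, the ratios were 1.71 for H2-Aa, 1.25 for H2-Ab1, 2.18 for H2-Eb1 and 0.98 for Cd74. Cd74 then fell under the fold. Differences between the cells inside a class, as described for the mature class, still entered these ratios.

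Mature B cell genes were higher in 12 of 17 tested, with a median of 1.12 and none lower. Bank1 went from 118 to 1356 CPM (3.47), H2-DMb2 had a ratio of 2.78, Cxcr5 of 2.06 and Ltb, the lymphotoxin subunit, of 2.03. Ighd went from 47.1 to 192 CPM (1.92) and Ms4a1 from 51.1 to 162 CPM (1.58). The egress receptor S1pr1 had a ratio of 1.12. The 5 within the fold were Cd37 (−0.09), Tnfrsf13c (−0.57), Tnfrsf13b (−0.05), Ccr7 (0.27) and Klf2 (−0.22). At equal class weights the Ighd ratio was 0.43 and the Ms4a1 ratio 0.97, both under the fold, and the Bank1 ratio 2.32.

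Of 11 activation genes 3 were higher and none lower, with a median of 0.12. Cd83 had 16 UMIs in WT and 221 in the mutant (3.61), the latter 252 CPM, and Cd86, the ligand of CD28 on T cells, 22 and 226 UMIs (3.28), the latter 258 CPM. Within the mature class Cd86 was seen in 0 of 10 WT and 24 of 32 mutant cells, the latter at 688 CPM. Nr4a1, induced by receptor signals, had a ratio of 1.08, and 0.99 without the cell richest in it. Cd69 (−0.45), Dusp2 (−0.99), Jun (−0.77) and Junb (0.64) were within the fold.

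Of the 4 surrogate light chain genes Vpreb2 was higher (35.1 and 89.0 CPM, 1.23), and Vpreb1 (0.36), Igll1 (0.51) and Vpreb3 (−0.97) were within the fold. The Vpreb2 call was lost in thinned cells (0.06) and with cells holding Cd3e, Cd3g or Csf1r kept (0.16). Of 8 recombination genes tested, Lig4, the ligase of end joining, was lower (−1.20), and Rag1 (146 and 75.3 CPM, −0.91) and Dntt (128 and 207 CPM, 0.67, and −2.45 in thinned cells) were within the fold. Of 8 early receptors Il7r was lower (511 and 252 CPM), only just past the fold. The Il7r call was lost with called doublets removed (−0.82), median of ratios scaling (−0.91) and 5 or more Cd79a and Cd79b UMIs (−0.95). Its ratio ranged from −1.55 to −0.82 across 19 alternatives. Of 16 proliferation genes Tubb5 (−1.18) and Stmn1 (−1.33) were lower, while Mki67 (0.40) and Top2a (0.16) were within the fold. Several of these genes passed the fold the lower way under other settings. In thinned cells (79 WT and 42 mutant members) Vpreb3 was at −1.69, Rag1 at −1.46 and Igll1 at −1.45. With cells holding Cd3e, Cd3g or Csf1r kept, Vpreb3 was at −2.10 and Rag1 at −2.05.

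Among 17 transcription factors 2 were higher and 2 lower. Erg (1.16) and Bcl11a (1.18), needed for early B cells, were higher, and Spib (−1.28) and Sox4 (−1.22) lower. Pax5 (0.39), Ebf1 (−0.17), Lef1 (0.54), Bach2 (−0.88) and Tcf3 (−0.91) were within the fold. Of 16 receptor and signalling genes the inhibitory Cd22 was higher (1.86), and Siglecg (−1.10) and Fcrla (−1.30) were lower. None of 3 genes of B1 and marginal zone cells passed the fold. Bcl2, which protects resting B cells from death, had a ratio of 2.17 and was seen in 11 WT and 36 mutant cells, and was the gene past the fold among 4 survival genes. Of 5 interferon response genes the antiviral Rsad2 was higher (4.93, in 2 and 15 cells), with 2 WT UMIs and so an interval of the plain log2 ratio of 4.82 to 9.75, and with 57.7% of its mutant UMIs in 1 cell, and Isg15 (0.16) was within the fold.

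Within the surrogate light chain class alone, stage was held closer but may still differ. The median cell had 11 Igll1 and Vpreb1 UMIs in WT and 43 in the mutant, at depths of 6561 and 10894 UMIs. Fewer genes passed the fold here: 109 of 3172 were higher (3.44%) and 101 lower (3.18%), 6.62% in all, with a median of −0.06. Without the richest cell of each library, 84 (2.65%) and 77 (2.43%) stayed so. The highest ratios were of haemoglobin genes, led by Hba-a2 (8.49), and all 7 erythroid genes tested were higher. All 4 mesenchymal genes tested were lower. Apart from Rpl29 (−6.11), the lowest ratios were of genes such as Prg4 and Dcn, with 100% and 99.6% of their WT UMIs in 1 cell. Erg (1.40), Bcl11a (1.38) and Vpreb2 (1.40) were higher in the mutant. Ikzf3 (−1.65) and Irf4 (−1.30), factors that rise as pre-B cells leave the cycle, were lower, at 295 and 90.8 CPM and at 281 and 111 CPM. Fcrla went from 180 to 41.0 CPM (−2.01), Blk from 305 to 132 CPM (−1.18) and Siglecg from 122 to 55.6 CPM (−1.07). Igkc went from 417 to 126 CPM (−1.69). No gene of the recombination list or the early receptor list passed the fold in this class, with Dntt at 0.87, Il7r at −0.40 and Cd93 at 0.95. Of 3 class II genes tested, H2-Aa (1.30, in 10 cells of each library) and Cd74 (1.55, in 13 WT and 4 mutant cells) were higher, and H2-Ab1 was not (0.35). A single mutant cell, which also had 47 C1q UMIs, carried 54 class II UMIs, and without the richest cell of each library the ratios were 0.31 for H2-Aa and −0.40 for Cd74, so neither passed the fold.

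Antibody secreting cells were few and dominated the constant region counts. Cells with 1000 or more Igkc UMIs numbered 1 in WT and 3 in the mutant, all in the remaining class, all with no Pax5 and no Ighm UMI, so that the rule had admitted them through Ebf1. The WT cell had 18162 Igkc UMIs, 54.8% of its RNA, with 2825 of Igha, the IgA heavy chain, and 2059 of Jchain, which joins IgA and IgM units. Of the mutant cells, the first had 8122 Igkc and 2691 Ighg2b UMIs, the second 8818 and 3666, and the third 2600 Igkc and 1326 Igha UMIs. Ighg2b, an IgG heavy chain, therefore read 10.0 CPM for WT and 7267 CPM for mutant members (8.92), seen in 4 and 6 cells, and with these 4 cells left out its ratio was 0.09. Igha stood at 2839 and 1588 CPM (−0.84), and 1.15 without these cells. Ighg1, Ighg2c, Ighg3 and Ighe had no UMI in either library. Of 8 germinal centre genes the repressor Bcl6 reached 50 UMIs (0.17), and of 4 plasma cell genes tested none passed the fold, with Xbp1 at 0.74 and Mzb1 at 0.62. Jchain stood at 2064 and 1041 CPM (−0.98), seen in 3 and 6 cells, and its ratio was 6.20 without the richest cell of each library and 0.31 without the Igkc-rich cells.

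The condition on Csf1r removed different cells from the libraries. Of barcodes that met the receptor and factor conditions, with no regard to Cd3e and Cd3g, it applied to 11 in WT and 39 in the mutant, all with Ighm. They were deep, with medians of 23710 UMIs (7465 to 59138) and 40633 UMIs (4635 to 123615), and C1q genes of macrophages were seen in 8 and 33 of them. By stage, 1 of the 11 and 34 of the 39 met the mature class. In the latter library the median such barcode had 8 Csf1r, 47 C1q, 10 Cd79a and Cd79b, 4 Ighd and 28 Bank1 UMIs. Among barcodes with 3 or more Csf1r and no Cd79a or Cd79b UMI, 570 in WT and 572 in the mutant with medians of 20681.5 and 20151.5 UMIs, Ighd was seen in 0 and 9. In the same barcodes Ighm was seen in 115 and 136, Igkc in 87 and 121, and Bank1 in 26 and 94.

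**Figure D3:**
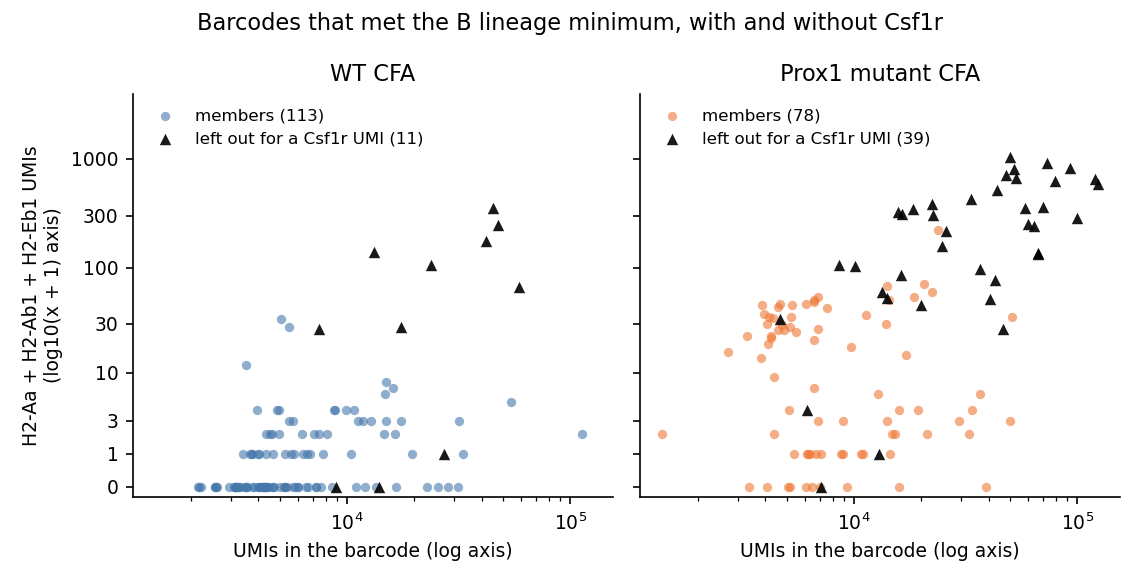
H2-Aa, H2-Ab1 and H2-Eb1 UMIs of each barcode (vertical axis, log10 of UMIs plus 1) against its total UMIs (horizontal log axis), in a panel per library, with members as circles and barcodes left out for Csf1r as triangles. The 11 WT and 39 mutant triangles lie at medians of 23710 and 40633 UMIs, to the right of most of the 113 and 78 circles.

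A doublet caller, which scores droplets that resemble a mixture of 2 cells and was set to take the highest scores at the rate usual for the number of barcodes, took 4 of the 11 and 14 of the 39, against 2 of 113 WT and 5 of 78 mutant members. Its own automatic threshold called no barcode in either library. With neither the Cd3e and Cd3g nor the Csf1r condition applied, B lineage barcodes were 124 (2.85%) in WT and 119 (2.07%) in the mutant, a difference of −0.782 points. The mature class then took 11 of 124 from WT (8.87%, 4.51 to 15.3) but 68 of 119 from the mutant (57.1%, 47.7 to 66.2), and 1 of those 11 and 34 of those 68 had Csf1r. The lower share of B lineage cells in the mutant was thus smaller without the conditions, and the excess of the mature class larger. Csf1r was also seen in 56.1% and 37.9% of T cells, and in 22 of 1079 and 25 of 556 endothelial cells.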

How the data were processed

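The authors aligned reads to mm10 (GRCm38) and counted UMIs per gene and barcode with Cell Ranger 7.0.1, per the labels, and deposited 1 table of raw counts for each of 2 libraries, with 32285 genes. Whether intronic reads were counted, doublets removed or mice pooled is not given in the sources used here, and the labels and the methods name different droplet kits and tissue enzymes. The filters were the only ones applied to cells, and doublets were called (scanpy 1.11.5, Scrublet) but not removed. The members and gene lists were chosen with earlier results of these data known.

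Total UMIs were 53517206 in WT and 62446987 in the mutant over all barcodes, and 998662 and 876014 in the members. Intervals and floors cover counting error only. Counts were summed over the members of a library (Python 3.11.15, numpy 2.4.6, scipy 1.17.1), divided by their total to give CPM, and compared as log2 of CPM plus 5 for genes with at least 50 UMIs. Named genes came from the lists, the 15 genes highest in members against other cells and the 10 of highest and 10 of lowest ratio. Further genes under other observations were chosen after their values were seen, most of them among genes seen in 20 or more members of a library. On simulated data of 6047 genes with counting error only, 99.5% of 200 genes changed by a log2 of 2 were recovered and 0.103% of unchanged genes were called. The simulation held no variation between cells or libraries, so these shares do not give the error of the ratios here. Shares and ratios were also computed after thinning each cell to 2000 UMIs and applying the rule again, which left 79 WT and 42 mutant members. No test between genotypes was run, since there was 1 library of each. A few genes of the lists are not reported here by name.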

Additional observations from a re-analysis of the deposited data

How the results depend on the processing

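No paired analysis was possible because each genotype had 1 library, and for the same reason none could be left out. Of 71 shares and gene counts recomputed under the alternatives, 63 moved by less than their interval or by less than 1.5 times, 8 moved further and none of these changed direction. The difference in the mature class, 32.2 points, ranged from 30.4 to 48.3, the latter with cells holding Cd3e, Cd3g or Csf1r not removed. The difference in the share of B lineage cells ranged from −1.54 to −0.782 points and in the surrogate light chain class from −18.5 to −3.26, and there the interval excluded 0 with at least 1000 genes (−27.0 to −0.0622), with 2 Cd79a and Cd79b UMIs (−25.7 to −1.13) and with cells holding Cd3e, Cd3g or Csf1r not removed (−29.4 to −6.96). The recombinase difference ranged from −21.4 to −8.50, and its interval included 0 with cells thinned to 2000 UMIs (−21.3 to 7.17). The 776 genes past the fold became 1263 with those cells not removed, 170 with thinned cells, 1455 at 20 or more UMIs, 414 at 100 or more, 2363 at 1 or more and 326 with a pseudocount of 50 CPM. Leaving out members with RNA of another lineage, an alternative chosen after seeing the data, gave 348 (248 higher, 100 lower). The split of 350 higher and 426 lower became 309 and 214 with Pax5 required, 297 and 222 without the cell of most UMIs in each library, 240 and 414 with called doublets removed, and 404 and 376 with median of ratios scaling. Of 532 ratios of single genes, 396 kept their value within the counting interval and 136 moved. The sign changed in 24 of the 532, over 9 of 28 genes (Jchain, Igha, Ighg2b, Vpreb1, Igll1, Dntt, Lef1, Igkc and Mki67), and of these Ighg2b was past the fold before: it was −0.94 with Pax5 required and −2.87 in thinned cells. Across 19 alternatives H2-Ab1 ranged from 1.25 to 3.30, Bank1 from 2.32 to 3.57, Vpreb3 from −2.10 to −0.82, Rag1 from −2.05 to −0.51, Dntt from −2.45 to 0.96, Lef1 from −0.56 to 0.70, Vpreb1 from −0.85 to 0.50, Igha from −1.88 to 2.39, Igll1 from −1.45 to 0.68, Igkc from −0.72 to 3.73 and Mki67 from −1.39 to 0.52, and Jchain reached 6.20. The cause of these shifts was not tested.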

Other observations

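Genes seen in 20 or more members of a library included more than the lists held, though a single cell could still carry much of a gene. The genes named here were chosen after their values were seen. Of 5287 such genes, 200 were higher and 140 lower in the mutant, each also without its richest cell. Gpr183, the EBI2 receptor that places B cells at the follicle edge, was seen in 1 WT and 31 mutant members, with 1 and 129 UMIs (log2 ratio 4.67 with 5 CPM added, and an interval of 4.70 to 12.52 without), while in T cells it stood at 87.9 and 98.8 CPM. Also higher were Plek, a protein kinase C substrate (3.04, in 23 and 48 cells), Cd274, the checkpoint ligand PD-L1 (2.89, 9 and 29 cells, with 40.1% of its mutant UMIs in 1 cell, and 2.58 without the richest cells), the lysophospholipid receptor P2ry10 (2.84, 8 and 31 cells), the inhibitory receptor Btla (2.49, 17 and 36 cells), March1, which removes class II from the surface (2.48, 8 and 32 cells), and Notch2, the receptor that directs marginal zone fate (2.23, 19 and 41 cells). Lower were Fam129c, a B cell protein (−2.05, 73 and 18 cells), Ifi30, a lysosomal thiol reductase (−2.04, 57 and 21 cells, and 541 and 282 CPM in T cells), the interleukin 2 receptor chain Il2ra (−1.51, 36 and 7 cells, with 55% of its mutant UMIs in 1 cell, and −2.26 without the richest cells), the histone deacetylase Hdac9 (−1.50, 71 and 33 cells) and Coq7, of coenzyme Q synthesis (−2.43, 50 and 10 cells, and 24.8 and 11.3 CPM in T cells and 10.4 and 6.63 CPM in endothelial cells).

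Some genes differed between the libraries in all 3 cell types looked at (B lineage, T and endothelial). Both libraries are labelled C57BL/6, but how far the mutant line was backcrossed is not given in the sources used here, so that strain background, library and the Prox1 genotype cannot be told apart in these values. Rpl29 (chr9:106429454-106431568), a ribosomal protein gene, stood at 1042 and 18.3 CPM in WT and mutant B lineage cells, 608 and 13.9 CPM in T cells and 523 and 11.9 CPM in endothelial cells. The interferon-inducible Ifi202b had no UMI in WT B lineage, T or endothelial cells (floor of 3 UMIs: 3.00, 2.40 and 0.380 CPM) and stood at 12.6, 66.7 and 26.5 CPM in the mutant ones. Bpifb1, a secretory protein of airway and gland epithelium, had no UMI in WT members. It was seen in 49 of 78 mutant members (62.8%), 67.2% of mutant T cells and 59.5% of mutant endothelial cells. Its levels there were 123, 65.8 and 118 CPM. Of kept mutant barcodes outside these 3 types, 63.8% held Bpifb1, with 122126 UMIs in all (2548 CPM). Their WT counterparts had 7 UMIs (0.183 CPM), all in 1 barcode. The origin of the Bpifb1 RNA in the mutant B lineage, T and endothelial cells was not tested. The neuronal genes Calca, Tac1, Prph, Stmn2, Tubb3, Stmn3 and Pcsk1n were among the lowest ratios, and nearly all of their UMIs lay in 1 WT member of 112787 UMIs.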
